A study of Mus musculus with 8 samples.

Results

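The genes described here are 47 markers of the epithelia that border the embryonic spleen: 20 genes of gut epithelium, 14 of pancreas and 13 of liver. They were taken as every probe whose annotation carries 1 of these symbols, out of 19057 gene symbols annotated on the array. That rule used no measured value, but the list of symbols was drawn up with earlier results of these data known. The arrays measured RNA from *Bapx1*-EGFP positive cells that had been dissected with the spleen at E12.5 and isolated by FACS, with 4 *Bapx1* null and 4 *Bapx1* wildtype replicates, all labelled strain C57BL/6J;129. Null cells came from homozygous embryos in which EGFP stands directly behind the start codon and replaces part of *Bapx1*. Wildtype cells came from embryos in which EGFP is joined through an IRES to an intact *Bapx1*, which the study writes as a heterozygous allele, while the labels give no copy number. Both genotypes therefore carry EGFP under the endogenous *Bapx1* promoter, and the design of the reporter and its number of copies cannot be told apart from the loss of *Bapx1*. The number of embryos behind each replicate is not given. Setting null against wildtype asks which of these epithelial RNAs differ with genotype in a population sorted for an active mesenchymal gene.

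*Bapx1* (*Nkx3-2*) encodes an NK homeodomain transcription factor of visceral and skeletal mesenchyme, and mice without it are born without a spleen. The splenic primordium forms in the mesenchyme beside the stomach and the dorsal pancreatic bud, close to gut, pancreatic and hepatic endoderm. These endodermal epithelia share E-cadherin, simple keratins and claudins, use forkhead and hepatocyte nuclear factors as regulators, and part ways in secreting pancreatic hormones and enzymes or plasma proteins. In bulk RNA, fewer cells of a type and less RNA per cell cannot be told apart.

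RefSeq promoter windows of build GRCm38.p6, short windows that span each gene start, were matched for 42 of the 47 members, with 49 windows. They were searched on both strands for TGAGTG and TAAGTG, letters read by NK2 and NK3 homeodomain proteins, and for the forkhead letters TGTTTAC, and no stretch printed here holds both kinds. The NK letters stood in 12 of the 49 member windows (24.5%) and in 23.9% of all 32851 windows, and the forkhead letters in 4 of the 49 (8.16%) and in 3.65% of all. A match describes the letters only. The 30-base stretches of 6 members that hold such letters and are described below are shown 5′ to 3′ on the gene's strand with the matched letters in capitals. *Tspan8* lies on the plus strand (chr10:115817255-115817284) and holds the forkhead letters. *Krt8* (chr15:102004375-102004404, minus strand), *Krt18* (chr15:102027973-102028002, plus strand), *Hnf4a* (chr2:163506734-163506763, plus strand), *Nkx6-1* (chr5:101664716-101664745, minus strand) and *Gcg* (chr2:62483762-62483791, minus strand) hold NK letters, in the keratin genes on the opposite strand.
Tspan8: aacttgatatcTGTTTACtctagagggagc
Krt8: ctagtgtctagcCACTCAggtaagaggccc
Krt18: cctgaaaacagaCACTCAggggctaacacc
Hnf4a: ccacaggttcccTAAGTGactggttactgt
Nkx6-1: ccgggcgagcggTGAGTGcgactcagcagc
Gcg: agatgagcaaagTGAGTGggcgagtgaaat

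Values below are log2 intensities after background correction and quantile normalization, with replicates 1 to 4 in that order, and a gene was tested if 4 or more of the 8 arrays had 1 of its probes above background, taken as a detection p under 0.05. The lowest value above background lay between 5.06 and 5.19 on each array, so values under 5 carry little order, and fold changes of dim genes are understated. Between 42.0 and 44.5% of probes were above background on each array. For the labelled tissue, 12 of 13 annotated markers of spleen mesenchyme were tested, 4 of them higher, 3 lower and 5 not passing. The 4 higher markers include *Bapx1* itself, the disrupted gene. *Meis1* (13.56 in null and 13.46 in wildtype cells) and *Col3a1* (13.38 and 13.20) did not pass. The spleen regulators *Nkx2-5* (log2 difference -2.31, limma adjusted p = 5.19e-05) and *Nkx2-3* (-0.70) and the mesenchymal filament gene *Vim* (-1.37) were lower in null cells. The stomach mesenchyme factor *Barx1* (1.48, adjusted p = 1.65e-04) and the mesenchymal markers *Pdgfra* (0.70, adjusted p = 2.87e-04) and *Twist1* (0.74, adjusted p = 0.00808) were higher. *Tlx1*, another spleen regulator, was above background on no array. *Bapx1* itself read 7.13, 6.86, 6.75 and 7.35 in null cells and was not above background on any wildtype array (at least 3.76-fold higher in null, limma adjusted p = 6.19e-06). The position of its probe relative to the part replaced by EGFP is not given here, so this does not check the genotype.

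Of the 47 members 18 were tested and 29 were not, 1 of which (*Onecut1*) is not analysed here. Among the tested members 9 were higher in null cells, none was lower, and 9 did not pass (limma, Benjamini-Hochberg adjusted p under 0.05). Of all 10766 genes tested 44.8% differed, 27% being higher and 17.8% lower in null cells, and the median log2 difference was 0.09. By class 6 of 8 gut genes, 1 of 5 pancreas genes and 2 of 5 liver genes were higher, with median log2 differences of 1.47, -0.11 and 0.83. The 6 of 8 gut genes are a larger share than the 27% of all genes, and the 1 of 5 pancreas genes and 2 of 5 liver genes lie on either side of it. The filter counts arrays of both genotypes, so a gene high in null cells can be tested through its null arrays. *Tspan8* (above background on 4 null arrays and 1 wildtype array), *Cldn6* (3 and 2) and *Apoa1* (3 and 1) were such genes. So were *Spink1* and *Ambp* (4 and 2 each) and *Cdh1* and *Hnf4a* (4 and 3 each). Of the called members only *Krt8* and *Krt18* were above background on all 4 wildtype arrays. These shares are therefore not independent of direction. All null arrays lay above all wildtype arrays for 5 of the 18 members and for 24.3% of all genes, and below them for 0 of the 18 and for 15.9% of all genes. Calls over all genes depended on the scaling. The share of them that were lower was 39.62% here, 14.16% with median absolute deviation scaling, which moved the median of all genes to 0.43, and 60.85% with median centring. No member reversed its direction under either scaling.

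**Figure D1:**
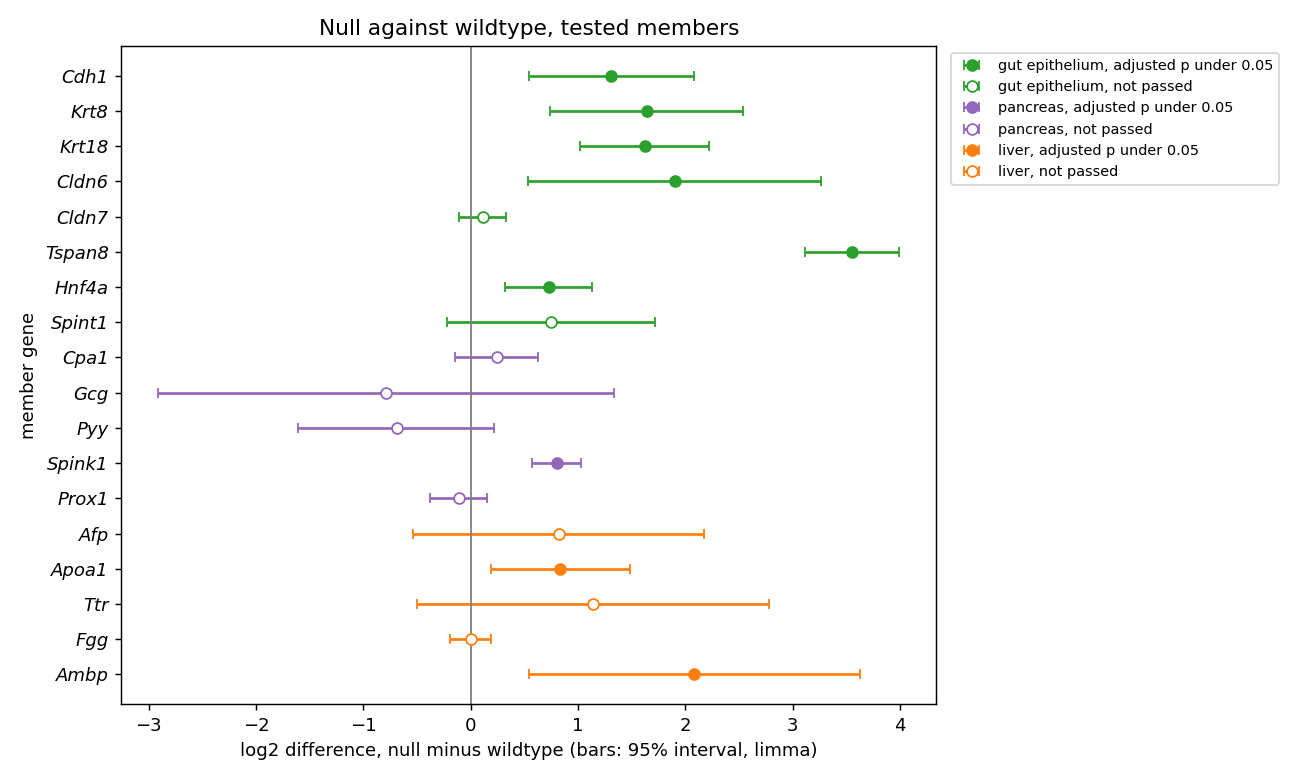
Log2 difference of the 18 tested members, null minus wildtype (x axis), with 95% intervals from limma, for gut epithelium (green), pancreas (purple) and liver (orange) markers; filled points have an adjusted p under 0.05. *Tspan8*, at 3.55, lies apart from the rest, and the intervals of *Gcg*, *Ttr* and *Afp* are wide and cross 0.

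The largest difference among the members was that of *Tspan8*, a tetraspanin of gut and other simple epithelia. It read 8.67, 8.44, 8.51 and 8.73 in null cells, against 4.89, 5.67, 4.69 and 4.90 in wildtype cells, where only replicate 2 was above background. All null arrays lay close together and far above every wildtype array. The log2 difference was 3.55 ± 0.19 (SE), or 11.7-fold (limma adjusted p = 5.03e-06). It passed under all 21 alternatives in which it was tested, with log2 differences of 2.64 to 4.86. *Tspan8* did not share the order of arrays seen in most of the other gut genes: null replicate 4, the lowest null array for 6 of the 8 gut genes, was its highest.

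Both tested simple keratins rose. *Krt18*, the type I partner of the pair, read 6.86, 7.20, 7.62 and 6.23 in null cells and 5.21, 5.62, 5.51 and 5.10 in wildtype cells, with no overlap. It rose 3.07-fold (log2 difference 1.62 ± 0.27, limma adjusted p = 0.00171). *Krt8*, its type II partner, read 7.92, 8.60, 8.86 and 6.87 in null cells and 6.23, 7.04, 6.29 and 6.13 in wildtype cells. Null replicate 4 fell below wildtype replicate 2, and the other null arrays were above all wildtype arrays. *Krt8* rose 3.11-fold (log2 difference 1.64 ± 0.40, adjusted p = 0.0106), while its other probe was above background on no array. Both keratins are also expressed by mesothelium, whose values are given further on. *Krt19*, another simple keratin, was above background on no array of either genotype.

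*Cdh1*, which encodes E-cadherin of epithelial adherens junctions, read 6.41, 6.77, 7.41 and 5.46 in null cells and 5.25, 5.21, 4.97 and 5.36 in wildtype cells. The groups did not overlap, although null replicate 4 stood little above the highest wildtype array. In the unnormalized signals they did, with 27.7 on null replicate 4 and 29.4 and 28.9 on wildtype replicates 1 and 4. *Cdh1* rose 2.48-fold (log2 difference 1.31 ± 0.34, limma adjusted p = 0.0137). Its other probe, above background on 2 null and 1 wildtype arrays, read 4.80, 5.07, 5.22 and 5.29 in null cells and 4.99, 4.85, 4.92 and 5.41 in wildtype cells and showed no such separation. *Hnf4a*, a nuclear receptor of endodermal epithelium and hepatocytes, read 5.62, 5.84, 6.48 and 5.63 in null cells and 5.13, 5.08, 5.19 and 5.27 in wildtype cells. It rose 1.65-fold (log2 difference 0.73 ± 0.18, adjusted p = 0.0113) without overlap, yet its unnormalized signals overlapped as well, with 23.9 on null replicate 1 and up to 26 on wildtype arrays. *Epcam*, the epithelial adhesion molecule most often used beside E-cadherin, had a signal of at most 1 on every array.

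*Cldn6*, a tight junction claudin of embryonic epithelium, spread widely between null arrays and read 6.80, 7.69, 8.25 and 4.92 in null cells and 5.18, 5.37, 4.63 and 4.87 in wildtype cells. Null replicates 1 to 3 were above every wildtype array, and null replicate 4 was not above background and lay among them. Its call (3.73-fold, log2 difference 1.90 ± 0.61, limma adjusted p = 0.0305) held without null replicate 4 (2.56, adjusted p = 4e-04), and it was lost without any of the other 7 arrays (adjusted p of 0.0506 to 0.0835). *Cldn7* varied little and did not pass, with 5.47 ± 0.16 in null cells and 5.36 ± 0.08 in wildtype cells (SD, n = 4 each), and a log2 difference of 0.11 with a 95% interval of -0.11 to 0.33 (adjusted p = 0.375). *Spint1*, an inhibitor of epithelial serine proteases, read 6.65, 7.46, 7.79 and 5.42 in null cells and 6.11, 6.10, 5.93 and 6.19 in wildtype cells. Null replicate 4 was its lowest array of all, and its difference of 0.75 (adjusted p = 0.182) passed only without that array (1.22, adjusted p = 0.0029).

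**Figure D2:**
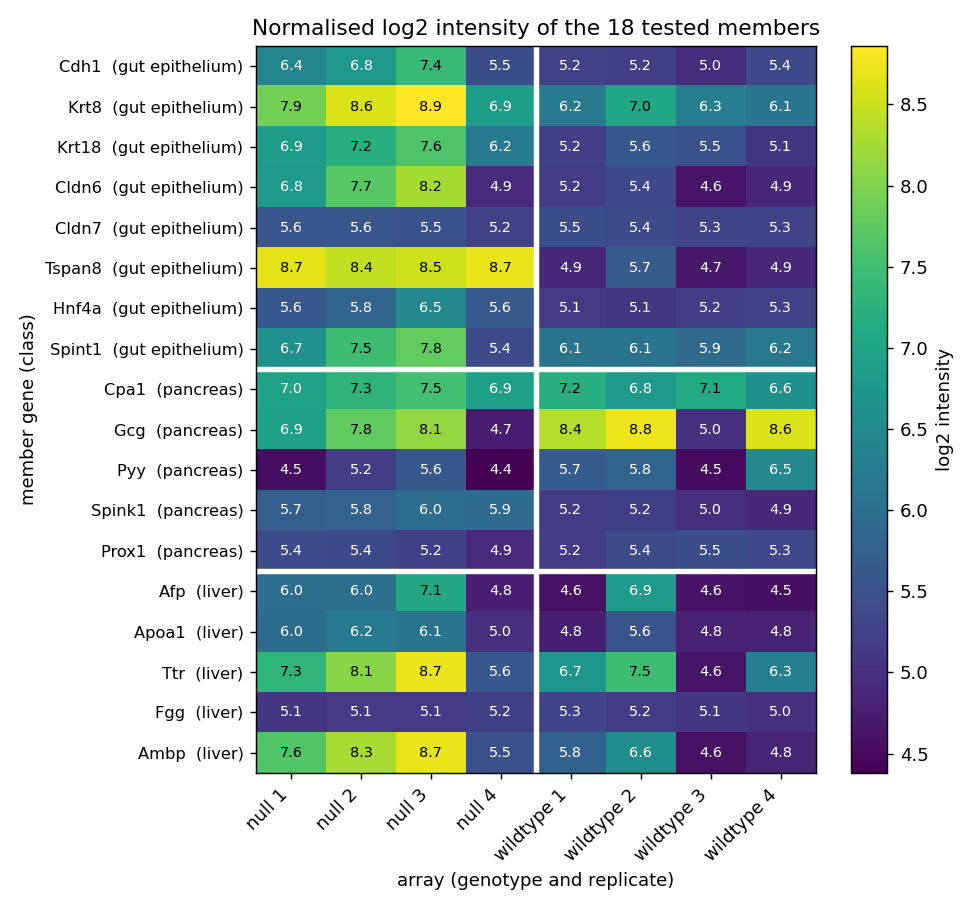
Normalised log2 intensity (colour and number) of the 18 tested members (rows, by class) on each array, null replicates left of wildtype replicates. *Tspan8* is at 8.4 or higher on all null arrays and at most 5.7 on wildtype arrays, while null replicate 4 is dark for most other genes that are bright on null replicates 1 to 3.

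Another 22 members had a usable probe but were above background on too few arrays to be tested. Of these 11 were above background on at least 1 null array and on no wildtype array, 1 (*Iapp*, the islet hormone amylin) on a wildtype array only, 1 (*Ihh*, a hedgehog ligand) in both genotypes and 9 (40.9%, against 76.2% of all genes not tested) on no array. The share detected in null cells alone was 50%, against 11.4% of those 5192 genes, while detection in wildtype cells alone was 4.55% against 6.68%. The claudins *Cldn3* and *Cldn4*, the forkhead factors *Foxa1* and *Foxa3* that open endodermal chromatin, the foregut factor *Sox2*, the epithelial factor *Elf3* and the pancreatic factor *Nkx6-1* were above background on 2 or 3 null arrays. *Foxa2*, another forkhead factor (means of 4.49 in null and 4.45 in wildtype cells), and *Spint2* were above background on no array. The other probe of *Sox2* was not above background on any array either, with means of 4.86 in null and 4.96 in wildtype cells. *Foxa3* read 5.62, 5.63, 6.37 and 4.71 in null cells and 4.57, 4.91, 4.67 and 4.62 in wildtype cells. *Nkx6-1* read 5.61, 5.86, 6.57 and 4.58 in null cells and 4.57, 4.61, 4.55 and 4.54 in wildtype cells. *Cldn4* read 5.24, 5.66, 6.25 and 4.72 in null cells and 4.65, 4.68, 4.43 and 4.59 in wildtype cells. In these 3 genes null replicates 1 to 3 stood above all wildtype arrays and null replicate 4 was below background. Taking each wildtype array at its lowest value above background gave differences of at least 1.39-fold for *Foxa3*, at least 1.46-fold for *Nkx6-1* and at least 1.28-fold for *Cldn4*. *Shh*, the epithelial hedgehog ligand, *Pdx1* and *Ptf1a*, regulators of the pancreatic bud, and the plasma protein gene *Vtn* were above background on 1 null array each. With no filter 9 gut, 3 pancreas and 1 liver members passed as higher in null cells, where 18.8% of all 15958 genes then fitted did, but the 5 gained (*Cldn3*, *Cldn4*, *Foxa3*, *Nkx6-1* and *Ptf1a*) were below background on every wildtype array, so no fitted size is given for them.

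The pancreas genes did not move as a group. *Spink1*, a trypsin inhibitor of acinar and gut epithelial cells, was the only tested pancreas marker that rose: it read 5.74, 5.78, 5.98 and 5.94 in null cells and 5.17, 5.21, 4.98 and 4.89 in wildtype cells. The groups did not overlap and the null arrays were close together, as for *Tspan8*. It rose 1.74-fold (log2 difference 0.80 ± 0.10, limma adjusted p = 4.68e-04). *Cpa1*, a carboxypeptidase of pancreatic progenitors and acinar cells, was above background on all arrays, at 6.96, 7.30, 7.52 and 6.90 in null cells and 7.18, 6.81, 7.12 and 6.62 in wildtype cells, with overlapping groups (log2 difference 0.24, adjusted p = 0.283). *Prox1*, a factor of pancreatic, hepatic and lymphatic endothelial cells, gave a log2 difference of -0.11 (adjusted p = 0.456).

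The 2 hormone genes that were tested had lower means in null cells, within wide spreads. *Gcg*, which encodes the glucagon precursor of the first endocrine cells, read 6.94, 7.76, 8.13 and 4.74 in null cells and 8.36, 8.75, 5.04 and 8.60 in wildtype cells. Null replicate 4 and wildtype replicate 3 were not above background, and the other 3 wildtype arrays were above every null array. *Pyy*, a peptide hormone co-expressed with glucagon in early endocrine cells, read 4.55, 5.19, 5.61 and 4.38 in null cells and 5.69, 5.83, 4.51 and 6.48 in wildtype cells. Neither passed over all 8 arrays (*Gcg* -0.79, limma adjusted p = 0.509; *Pyy* -0.69, adjusted p = 0.188). Without wildtype replicate 3 the difference of *Pyy* was -1.07 (adjusted p = 0.0266) and that of *Gcg* -1.68 (adjusted p = 0.0851). *Neurog3* and *Neurod1*, which drive endocrine differentiation, and *Chga* and *Nkx2-2* of endocrine cells were above background on no array. Of endocrine genes outside the 47, *Ghrl*, which encodes the hormone ghrelin, and *Insm1*, an endocrine zinc finger factor, were above background on 3 null arrays and no wildtype array, at least 2.20-fold and at least 1.5-fold higher in null cells. *Ghrl* read 6.01, 6.93, 7.42 and 4.64 in null cells and 4.55 to 4.84 in wildtype cells, so that null replicate 4 was again low.

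**Figure D3:**
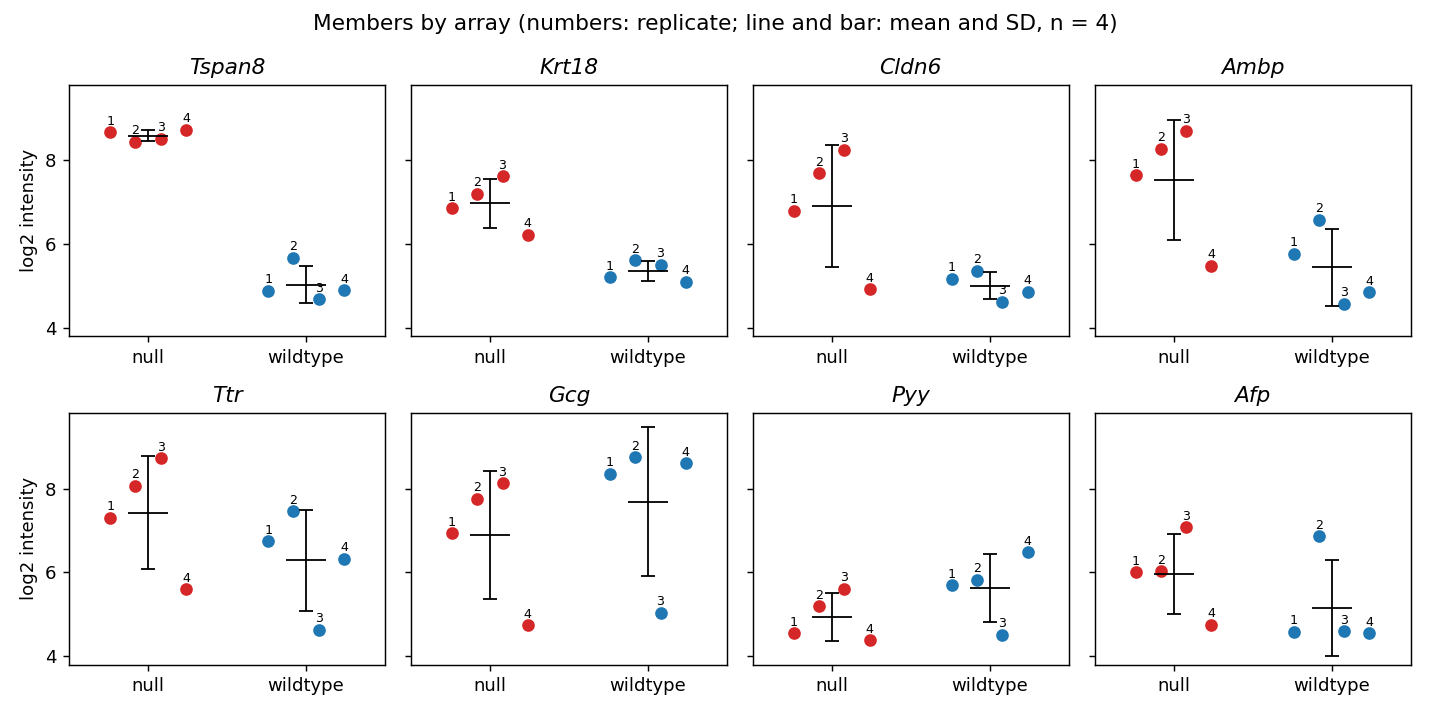
Normalised log2 intensity (y axis) of 8 members on the null arrays (red, left) and the wildtype arrays (blue, right), with replicate numbers; the horizontal line and bar are the mean and SD (n = 4). *Tspan8* separates the genotypes on every array, *Cldn6*, *Ambp* and *Ttr* are low on null replicate 4, *Gcg* and *Pyy* are low on null replicate 4 and wildtype replicate 3, and *Afp* is high on wildtype replicate 2.

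Of the 13 liver genes 5 were tested, and 4 of these varied widely between replicates. *Ambp*, which encodes the precursor of a plasma protease inhibitor, read 7.64, 8.28, 8.71 and 5.49 in null cells and 5.77, 6.58, 4.58 and 4.85 in wildtype cells. Null replicates 1 to 3 were above every wildtype array and null replicate 4 was inside the wildtype range. It rose 4.24-fold (log2 difference 2.08 ± 0.69, limma adjusted p = 0.0342). *Apoa1*, the main apolipoprotein of high density lipoprotein, read 5.96, 6.24, 6.11 and 4.98 in null cells and 4.78, 5.56, 4.80 and 4.82 in wildtype cells and rose 1.78-fold (0.83 ± 0.29, adjusted p = 0.0395). Neither call was firm: leaving out any array but null replicate 4 or wildtype replicate 2 ended both, with adjusted p of up to 0.0905 for *Ambp* and 0.105 for *Apoa1*.

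*Ttr*, the thyroxine carrier of liver and early endocrine cells, read 7.31, 8.07, 8.72 and 5.60 in null cells and 6.74, 7.46, 4.63 and 6.32 in wildtype cells. It was thus lowest on the same arrays as *Gcg*, and its difference of 1.14 did not pass (limma adjusted p = 0.223) except without null replicate 4 (1.75, adjusted p = 0.0357). *Afp*, the fetal liver albumin homologue, read 6.00, 6.03, 7.08 and 4.75 in null cells and 4.58, 6.86, 4.60 and 4.55 in wildtype cells. Wildtype replicate 2 alone was above background in its genotype, and the difference of 0.82 (adjusted p = 0.287) passed only without it (1.39, adjusted p = 0.0423). *Fgg*, a fibrinogen chain, sat at background with 5.03 to 5.28 on every array (log2 difference 0.00, adjusted p = 0.99). *Alb*, an abundant hepatocyte product, and *Fgb* and *Apoh* had signals of at most 1 on every array, and *Apoa2*, *Ahsg*, *Fga* and *Apob* were above background on none.

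Most tested members shared 1 order of arrays within the null genotype. Null replicates 2 and 3 were the highest null arrays for 13 of 18 members and null replicate 4 the lowest for 14, against 32.8 and 36.7% of all genes. Both held for 12 of the 18 (26.6% of all genes). Null replicate 4 and wildtype replicate 3 were each the lowest of their genotype for 7 of the 18, where 3.6% of all genes had this order. Averaged over tested members and set against the wildtype mean, gut genes stood at 1.36, 1.74, 2.10 and 0.61 on null replicates 1 to 4 and between -0.14 and 0.23 on wildtype arrays. Liver genes stood at 1.0, 1.35, 1.75 and -0.19 on null arrays and at 0.03, 0.93, -0.66 and -0.29 on wildtype arrays. Pancreas genes stood at -0.21, 0.15, 0.36 and -0.75 on null arrays and at 0.19, 0.27, -0.71 and 0.26 on wildtype arrays. Of the 3 classes only the gut mean kept the genotypes apart on every array, and this rested on *Tspan8*. Without it the gut mean stood at 1.03, 1.5, 1.90 and 0.16 on null arrays and at -0.01, 0.18, -0.11 and -0.06 on wildtype arrays. The summed signal over all gut probes without *Tspan8*, at 309.6 to 1496.7 in null and 212.1 to 363 in wildtype cells, overlapped.

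The means of erythroid, endothelial, mesothelial and macrophage markers followed this order among null arrays, and that of neural markers did so only in part. The part of these cells in the results was not tested. Erythroid genes, of which 7 of 12 were tested, stood at 1.93, 2.55, 3.13 and -1.07 on null replicates 1 to 4 and between -0.92 and 1.02 on wildtype arrays, with summed signals of 852.2 to 27909 in null and 1550.8 to 7427.2 in wildtype cells. Only *Alas2* of them passed (log2 difference 1.55, limma adjusted p = 0.0474), and *Gata1* was above background on no array. Endothelial genes, 9 of 12 tested, stood at 0.63, 1.08, 1.35 and -0.56 on null arrays and between -0.34 and 0.67 on wildtype arrays, with summed signals of 830.5 to 2407.5 in null and 996.2 to 1547.4 in wildtype cells, and *Kdr* and *Tie1* were above background on none. The 2 endothelial genes that passed went opposite ways, *Emcn* being higher (log2 difference 1.55, adjusted p = 0.0476) and *Tek* lower (-1.41, adjusted p = 5.31e-06) in null cells. Mesothelial genes, 8 of 12 tested and 2 of these being *Krt8* and *Krt18*, stood at 0.72, 0.89, 1.08 and 0.40 on null arrays and between -0.22 and 0.44 on wildtype arrays, with summed signals of 1529.9 to 2788.1 in null and 963.7 to 1611.8 in wildtype cells. Of the 8 tested 4 were higher, *Krt8* and *Krt18* among them, none was lower and 4 did not pass. Of all genes tested 27% were higher. In that list *Cdh3* rose 3.97-fold (limma adjusted p = 1.56e-04) and *Lrrn4* 1.61-fold (adjusted p = 0.00521). *Upk3b* (0.12, adjusted p = 0.74), *Upk1b* (0.07, adjusted p = 0.842), *Gpm6a* (-0.14, adjusted p = 0.625) and *Bnc1* (0.19, adjusted p = 0.558) did not pass. Macrophage genes, 7 of 10 tested, had none that passed, with summed signals of 200.5 to 688.7 in null and 454.6 to 681.3 in wildtype cells, and *Ptprc* was above background on no array. Of 5 neural and neural crest genes tested, in a list of 14, 3 were higher and 1 (*Ednrb*) lower. Their mean stood at 1.12, 1.08, 1.30 and 0.64 on null arrays and between -0.31 and 0.19 on wildtype arrays, with no overlap. *Dcx*, a neuronal gene, rose 1.42-fold (limma adjusted p = 0.0179), while its other probe did not pass (log2 difference 0.32, adjusted p = 0.157). *Stmn2*, another neuronal gene, rose 5.49-fold (limma adjusted p = 7.24e-05). Unlike most members it was highest on null replicate 4, at 8.80, 8.55, 8.43 and 8.99 on null arrays. *Sox10*, a neural crest factor, had the array order of the members, at 7.82, 8.56, 9.25 and 5.25 in null cells and 4.78 to 5.5 in wildtype cells (6.15-fold, adjusted p = 0.0172). *Ret*, a receptor of enteric neural crest, was above background on 3 null arrays and no wildtype array (at least 2.82-fold), and null replicate 4 was again the low one. The list had summed signals of 3204.8 to 4922.9 in null and 4243.3 to 5391.9 in wildtype cells.

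**Figure D4:**
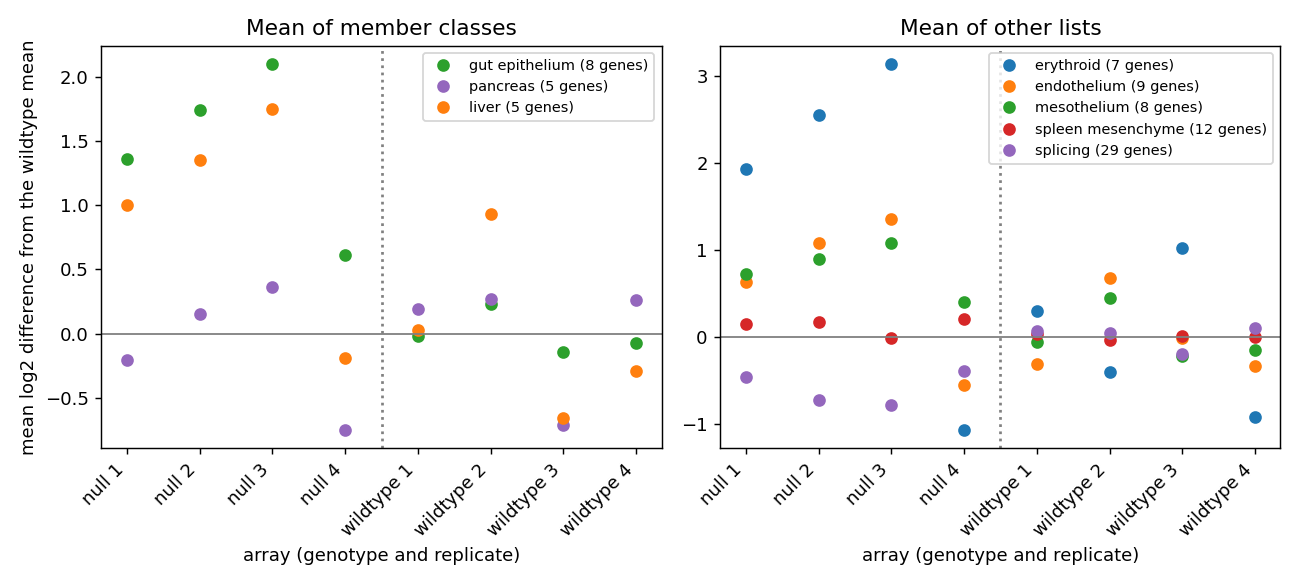
Mean log2 difference from the wildtype mean (y axis) on each array (x axis, null left of wildtype) for the 3 member classes (left panel) and 5 other lists (right panel), over the tested genes of each. Gut, liver, erythroid and endothelial means are highest on null replicates 2 and 3 and lowest among null arrays on replicate 4. The spleen mesenchyme mean stays within 0.20 of the wildtype mean. It is taken over genes that went both ways (4 higher, the disrupted *Bapx1* among them, and 3 lower).

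Splicing regulators and *Xist*, an RNA made from the inactive X chromosome of female cells, differed with genotype as well. The mean of 29 splicing regulators stood at -0.46, -0.73, -0.78 and -0.40 on null replicates 1 to 4 and between -0.20 and 0.10 on wildtype arrays, lowest on the null arrays where the members were highest. *Xist* read 9.71, 9.89, 9.17 and 9.85 in null cells and 11.39, 11.99, 10.75 and 12.43 in wildtype cells. Neither overlapped between the genotypes, so a fit with either as a covariate also removes effect of genotype, and their part was not tested. With either covariate only *Tspan8* of the 9 members kept its call. A fit that left out wildtype replicate 3 and null replicates 2 and 3, where the splicing regulators were lowest in each genotype, was chosen after seeing the data. In it *Tspan8*, *Krt18*, *Hnf4a* and *Spink1* kept their calls. *Cdh1* (0.66, limma adjusted p = 0.0885), *Krt8* (0.93, adjusted p = 0.0967), *Cldn6* (0.72, adjusted p = 0.299), *Apoa1* (0.42, adjusted p = 0.376) and *Ambp* (0.83, adjusted p = 0.388) lost theirs. *Gcg* (-2.73, adjusted p = 0.013, with 2 null and 3 wildtype arrays) and *Pyy* (-1.53, adjusted p = 0.00431) passed as lower in null cells. The 2 null arrays left out were the highest null arrays for *Gcg*, *Pyy* and every gene that lost its call. Wildtype replicate 3 was the lowest wildtype array for *Gcg* and *Pyy*, so these changes follow in part from which arrays were left out.

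Other epithelial genes outside the 47 were read from a longer list of 35, of which 8 were tested, 5 were higher, none was lower and 3 did not pass. Of all genes tested 27% were higher. The 3 were *Lgals4* (log2 difference 0.25, limma adjusted p = 0.0938), *Cdx1* (-0.26, adjusted p = 0.0996) and *Muc1* (0.03, adjusted p = 0.841). *Klf5*, a transcription factor of gut epithelium that is also made in mesenchyme, read 9.84, 9.77, 9.70 and 9.90 in null cells and 7.02, 7.22, 7.35 and 6.80 in wildtype cells. *Gata6*, a factor of endoderm and visceral mesoderm, read 10.37, 10.15, 10.41 and 10.45 in null cells and 8.23, 8.39, 7.68 and 7.88 in wildtype cells. In both genes the null arrays lay close together and apart from wildtype, as for *Tspan8* and without the low null replicate 4, and the rises were 6.52-fold (limma adjusted p = 2.45e-06) and 4.93-fold (adjusted p = 1.44e-05). *Krt7* (2.13-fold, adjusted p = 0.00468) and *Cldn1* (2.83-fold, adjusted p = 0.00695) also rose. *Esrp1*, an epithelial splicing regulator, read 7.03, 7.52, 8.11 and 5.07 in null cells and 4.68, 5.17, 4.58 and 4.63 in wildtype cells, low again on null replicate 4. It rose 4.49-fold (limma adjusted p = 0.012) and was above background on 3 null arrays and 1 wildtype array. *Rab25*, an epithelial trafficking gene, and *Esrp2* were above background on 3 null arrays and no wildtype array (at least 1.33-fold and at least 1.16-fold higher in null cells). *Grhl2*, *Prom1* and *St14*, genes widely used by epithelia, were above background on no array. Of 31 further pancreas genes 2 were tested, of which *Isl1* rose (1.61-fold, adjusted p = 0.0238) and *Sox9* was lower in null cells (log2 difference -1.52, adjusted p = 4.53e-04), and both are also mesenchymal genes. Of 34 further liver genes 8 were tested, of which *Dlk1* was higher (log2 difference 0.27, adjusted p = 0.014), *Hhex* (-0.74, adjusted p = 0.00283) and *Trf* (-0.64, adjusted p = 0.0349) were lower and 5 did not pass.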

How the data were processed

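RNA of 8 samples of sorted *Bapx1*-EGFP positive cells was hybridized to Illumina MouseWG-6 BeadChips. The intensity values were background-subtracted in GenomeStudio and deposited by the authors with no scaling from array to array. Its p-value columns, as deposited, hold 1 minus the detection p and were turned. The log2 values of the second deposited table were floored, centred on each array's median and set against a baseline per probe that is not stated, so their centring is known only in part. The tables name probes differently and were joined by their 8 values. Each holds 45281 probes, 34536 of which matched exactly 1, including all 19841 detected on at least 4 arrays. Of 64 member probes 50 matched, and the 14 others were candidates only among probes detected on no array.

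Signals were normalized with neqc (offset of 16) in limma 3.58.1 under R 4.3.3 with statmod 1.5.0. The brightest kept probe stood for its gene. The genotypes were compared with limma (lmFit, eBayes, no covariate, two-sided, Benjamini-Hochberg adjustment). Groups came from the labels, which number replicates of separate samples, and p-values measure the spread between these. The number of arrays limits the precision. Alternatives were another offset, no background correction, 2 other scalings, the second table, 3 other filters, the mean of probes, a replicate block, 2 covariates, the methods' t-test, and leaving out arrays. All tested members are named, with up to 4 called genes per other list and *Bapx1*, and other genes named were chosen after their values were seen. Members and lists were chosen with earlier results of these data known. Probe positions are not given in the sources used here.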

Additional observations from a re-analysis of the deposited data

Results flagged for a closer look

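In 3 of 36 groups of 4 arrays (18 tested members in each genotype) 1 array lay far from the others by Dixon's test at the 95% level, which chance gives in about 1 in 20 groups. *Gcg* read 5.04 on wildtype replicate 3 and 8.36 to 8.75 on the other wildtype arrays. *Afp* read 6.86 on wildtype replicate 2 and 4.55 to 4.60 on the others, and *Apoa1* read 5.56 on that same array and 4.78 to 4.82 on the others. The 2 liver genes thus share the array that stands apart. The tested liver genes averaged highest among wildtype arrays there, at 0.93 above the wildtype mean, but that average includes these 2 genes. Of the other tested liver genes *Ttr* and *Ambp* were also highest in wildtype on this array, and *Fgg* was not.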

How the results depend on the processing

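Over all genes 4823 differed, 728 with the splicing regulators and 306 with *Xist* as a covariate, and 3378 to 5664 when 1 array was left out. The number of gut members higher in null cells was 6. It was 1 with either covariate or with a detection p under 0.01 on all arrays (fewer genes tested), 3 without wildtype replicate 3 and null replicates 2 and 3, 9 with no filter, 4 with the methods' t-test (*Cdh1* 0.0511 and *Cldn6* 0.0894 in adjusted p) and 5 to 7 with 1 array left out. The pancreas count of 1 was 3 with no filter or a 20th percentile filter and 0 with the covariates or the stricter detection, and with 1 array left out it stayed at 1. Lower pancreas members numbered 0, 2 without the 3 arrays, and 0 to 1 with 1 array left out. The liver count of 2 was 1 with no background correction, median absolute deviation scaling, the value table or no filter, 0 with the covariates, the stricter detection, the methods' t-test or without the 3 arrays, and 0 to 3 with 1 array left out. Under the stricter detection *Krt8* and *Cpa1* were the only members tested, so its lower counts reflect members that were not tested. Signs turned with the splicing covariate for *Krt8* (-0.04), *Cldn6* (-0.54), *Cldn7* (-0.04), *Spint1* (-1.13), *Cpa1* (-0.57), *Afp* (-0.51) and *Fgg* (0.09), with *Xist* for *Cpa1* (-0.50), *Gcg* (1.75) and *Pyy* (0.67), without the 3 arrays for *Spint1* (-0.10) and *Ttr* (-0.38), and for *Fgg* with no background correction (0.01) or 1 array left out (-0.04 to 0.05). These causes were not tested. With the replicate number as a block, which the labels do not tie to a litter or day (residuals of same-numbered arrays correlated at 0.05 to 0.38, and not every array correlated best with its own number), 5047 genes differed and 6, 1 and 2 gut, pancreas and liver members were higher. Members under about 5.1 on the log2 scale cannot be ordered at this signal over background.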
